A study of Drosophila melanogaster with 3 samples.

Results

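The genes described here encode 4 families of cell surface receptors through which neurons of the fly recognise partners: the dpr genes, the DIP genes, the beat genes and side with its relatives. They were taken as every protein-coding gene whose symbol starts with dpr and a digit, with DIP- or with beat-, or that is side or starts with side-, which gave 54 of 13945 protein-coding genes (21 dpr, 11 DIP, 14 beat and 8 side genes). The data are ChIP-seq (sequencing of immunoprecipitated chromatin) of the homeodomain protein Prospero from whole fruit fly embryos aged 2 to 18 h, both sexes pooled, as 3 biological replicates of a single group. The transgenic line carried Prospero with a C-terminal green fluorescent protein tag, and anti-GFP was used per the sample descriptions, although the antibody label reads pros. The age is taken from the source name, since the value under the age label is far too large for an embryo. Every replicate carried the tagged transgene, and no other genotype or stage was compared. No control library was analysed here, while each replicate's deposited peak list was derived with a control, per the file descriptions. Whole embryos mix all tissues, so a summit cannot be given to a cell type.

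Dpr and DIP proteins are immunoglobulin superfamily proteins. Each Dpr binds particular DIPs across the contact between neurons, and the pairs differ between neuron types, so that combinations of them help to match synaptic partners. Beat proteins (named after beaten path) and Side proteins (named after sidestep) form a second such network: Beat-Ia on motor axons reads Side on the cells along the axon's path. Prospero acts in the daughter cells of dividing neuroblasts, where it represses genes of the stem cell and is needed for neuronal differentiation.

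Few of these receptor genes had a Prospero summit. A gene was called bound when the gene itself or the 1 kb before it held an optimal-set summit, the optimal set being the 6215 peaks that passed the authors' threshold on reproducibility. By this rule 9 of 54 members were bound (16.7%, exact binomial 95% interval 7.92% to 29.3%), where 17.9% of all protein-coding genes were, so that the share was close to that over all genes. The members are long, with a median of 36.2 kb against 2.17 kb for all protein-coding genes, and long genes hold more summits. Among the 100 other genes nearest in length to each member, on average 52.1% were bound. For the longest members this match was loose. The genes set beside DIP-lambda (379 kb) ranged from 90.1 to 434 kb, and those beside dpr6 (165 kb) from 88.8 to 225 kb. A member held a mean of 0.315 summits, and a gene of like length held 2.25. In the strongest 6215 peaks of each replicate taken alone, 8, 7 and 9 members were bound in replicates 1, 2 and 3, which is 14.8% ± 1.85 (SD, n = 3), against 52.2% ± 1.16 of genes of like length (SD, n = 3). All protein-coding genes stood at 16.9%, 17.1% and 19.4% in the same lists. The gap of members to genes of like length was thus far larger than the spread between replicates. With a single group of samples there is no test between groups, and the comparison with genes of like length is a description. The interval covers counting error only, and the 1914 genes of like length recur, many of them, for several members. With only the summits matched among the strongest peaks of both remaining replicates, the share was 9.26% without replicate 1, 14.8% without replicate 2 and 7.41% without replicate 3, against 45.7% to 46.2% of genes of like length.

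**Figure D1:**
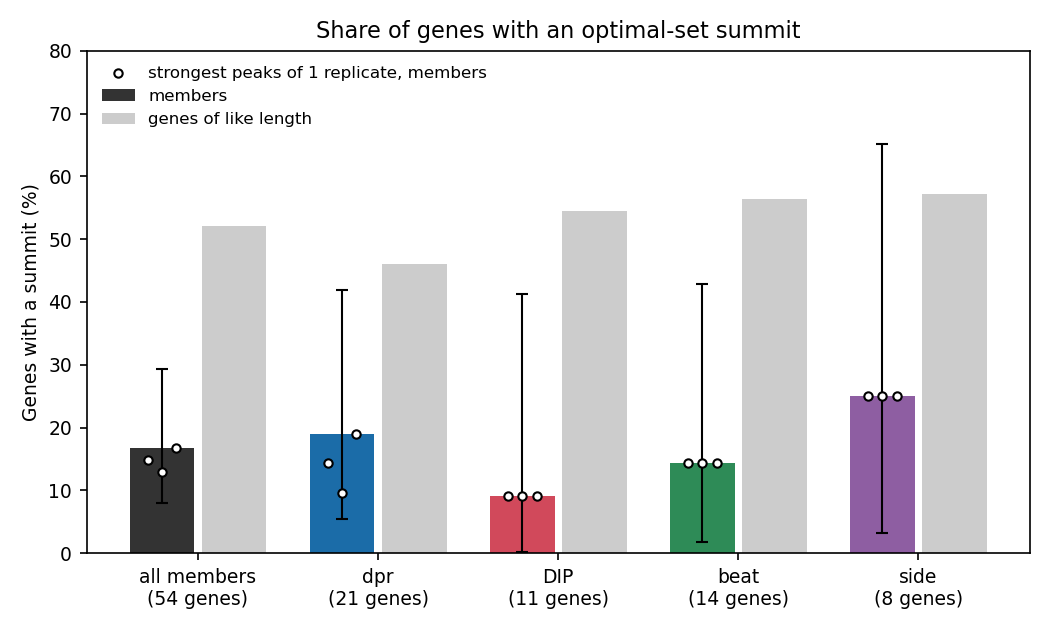
Percent of genes with an optimal-set summit in the body or 1 kb upstream, for members (left bars, with exact binomial 95% intervals) and for the 100 genes nearest in length to each member (grey bars), and the same share of members from the strongest peaks of each replicate alone (open circles). Members stand at 16.7% in all and at 9.09% to 25% by family, below the grey bar in each family.

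Each family stood below its genes of like length, and the interval of each included the 17.9% of all protein-coding genes. Of the dpr genes 4 of 21 were bound (19.0%, against 46.0% of genes of like length), of the DIP genes 1 of 11 (9.09%, against 54.5%), of the beat genes 2 of 14 (14.3%, against 56.4%) and of the side genes 2 of 8 (25%, against 57.2%). The families are small: the exact binomial 95% interval of the side genes, 3.19% to 65.1%, includes the share of their genes of like length, while those of the dpr genes (5.45% to 41.9%), the DIP genes (0.23% to 41.3%) and the beat genes (1.78% to 42.8%) do not. No difference between families was tested. Without replicate 1 or replicate 3 the dpr count was 2 and the side count 0, and without replicate 3 the beat count was 1. The bound dpr genes were dpr14, dpr18, dpr19 and dpr20, the bound DIP gene was DIP-alpha, the bound beat genes were beat-Ib and beat-IIIc, and the bound side genes were side and side-V.

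The 9 bound genes held 17 distinct summits in 13 peak regions, none of them shared between members. None of the 17 was among the 621 strongest summits of the optimal set, 4 (23.5%) were in its stronger 50%, and their median rank was 4611 of 6215. All 17 had a match within 150 bp among the strongest peaks of at least 1 replicate, but 5 (29.4%) had it in all 3, where 63.5% of the optimal set did.

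The sequence around the strongest summit is given for the 6 bound members with the strongest summits on 2L, 3L and X, as the places where the peak lists put Prospero most strongly in these genes. The windows reach 100 bp to either side of the summit, read on the plus strand of dm6 (RefSeq copy of the assembly): chr2L:15908963-15909163 for beat-Ib, chrX:7908713-7908913 for dpr14, chr3L:857770-857970 for dpr20, chr2L:17227025-17227225 for beat-IIIc, chrX:3546060-3546260 for DIP-alpha and chr2L:10375962-10376162 for dpr19. Capitals mark GAGAG or its reverse complement CTCTC, the core read by GAGA-binding proteins, and CANNTG, the E-box read by basic helix-loop-helix proteins; a match is a description and not a binding site.
beat-Ib: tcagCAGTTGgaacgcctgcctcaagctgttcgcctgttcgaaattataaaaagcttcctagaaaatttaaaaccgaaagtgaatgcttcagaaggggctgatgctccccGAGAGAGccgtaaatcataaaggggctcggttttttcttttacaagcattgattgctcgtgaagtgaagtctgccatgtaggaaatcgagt
dpr14: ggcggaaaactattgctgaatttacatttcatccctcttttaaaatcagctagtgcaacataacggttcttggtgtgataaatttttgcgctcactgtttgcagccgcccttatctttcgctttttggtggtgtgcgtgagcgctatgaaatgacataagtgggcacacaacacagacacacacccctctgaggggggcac
dpr20: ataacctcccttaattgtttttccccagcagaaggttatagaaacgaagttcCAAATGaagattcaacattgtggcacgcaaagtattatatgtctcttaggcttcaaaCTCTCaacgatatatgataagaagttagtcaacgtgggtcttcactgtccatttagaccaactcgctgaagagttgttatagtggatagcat
beat-IIIc: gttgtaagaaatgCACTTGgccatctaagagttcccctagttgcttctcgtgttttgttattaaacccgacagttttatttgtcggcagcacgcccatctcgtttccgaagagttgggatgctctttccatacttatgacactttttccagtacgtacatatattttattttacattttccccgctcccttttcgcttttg
DIP-alpha: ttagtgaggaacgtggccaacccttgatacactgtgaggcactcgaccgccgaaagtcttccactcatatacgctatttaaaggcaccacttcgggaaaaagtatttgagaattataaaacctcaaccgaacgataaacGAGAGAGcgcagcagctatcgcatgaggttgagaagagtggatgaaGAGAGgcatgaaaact
dpr19: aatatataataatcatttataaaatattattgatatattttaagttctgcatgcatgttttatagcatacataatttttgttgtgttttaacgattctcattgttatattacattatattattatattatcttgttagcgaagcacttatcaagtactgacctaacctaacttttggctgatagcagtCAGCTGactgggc

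These windows differ in make-up. The beat-Ib and DIP-alpha windows hold GAGAG 2 and 3 times over both strands, counting overlapping matches, and the dpr20 window holds it 1 time. The dpr14 window has neither motif, and the dpr19 window is poor in GC, with a GC content of 26.9%, against 46.3% at dpr14. None of the 6 holds AAGACG, the core read by the vertebrate relative of Prospero, Prox1, on either strand.

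Over all 17 summits of the members, AAGACG was in 0 windows (exact binomial 95% upper limit 19.5%), against 11.3% of the optimal set and 11.8% of summits in genes of like length. With 17 summits that difference was not detectable, since the interval includes 11.3%. In windows 500 bp to either side of the member summits the core was in 2 of 34 (5.88%), and around the optimal set in 5.13%. GAGAG was in 7 member windows (41.2%) and in 17.6% of their flanks, with 40.3% and 23.0% for the optimal set. CANNTG was in 12 member windows (70.6%) and in 64.3% of the optimal set. The E-box CAGCTG, counted within CANNTG too, was in 1 member window (5.88%) and in 11.6% of the optimal set. The homeodomain core TAATTA was in 1 member window (5.88%) and in 26.5% of the member flanks, with 7.58% and 14.4% for the optimal set. The Suppressor of Hairless core GTGGGAA was in 1 member window and in 3.38% of the optimal set, and CAGGTA, read by Zelda, was in 0 member windows and in 6.28% of the optimal set. Counts this low do not separate the members from the optimal set. Both strands were searched throughout.

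Among the beat genes, beat-Ib held 7 of the 17 summits (41.2%), the most of any member. This gene (FBgn0028645, 2L 15905134 to 15962435, minus strand, 57.3 kb) encodes a relative of Beat-Ia and had them in 4 peak regions, where its genes of like length had a median of 1 and 11 of the 100 had as many. The strongest peaks of replicates 1, 2 and 3 placed 4, 4 and 6 summits in it (4.67 ± 1.15, SD, n = 3). The 7 summits lay within 4.53 kb near the 3′ end of the gene, in the intron numbered 2 of its canonical transcript, 48.8 to 53.4 kb from its 5′ end. The strongest, at 15909063, ranked 1007 in the optimal set and 1252, 1400 and 864 in replicates 1, 2 and 3, which makes it the strongest Prospero summit of any member. The weaker ones were less steady: the summit at 15913591 ranked 3380 and 2868 in replicates 1 and 3 but 14560 in replicate 2. A pair of long non-coding RNA genes, lncRNA:CR44867 and lncRNA:CR44868, is annotated inside this stretch, and the summits at 15911853 and 15912170 lie 162 and 388 bp from their starts. By position these summits cannot be assigned to beat-Ib rather than to the RNA genes. The related beat-Ia and beat-Ic had no summit in the optimal set.

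The other bound beat gene, beat-IIIc (FBgn0032629, 2L 17187637 to 17260734, minus strand, 73.1 kb), had 2 intronic summits, at 17227125 and 17221613, which lie 33.6 and 39.1 kb from its start. The first ranked 4302 in the optimal set and 6294, 3757 and 4305 in replicates 1, 2 and 3, so that replicate 1 placed it just outside its strongest 6215 peaks. The 12 other beat genes had none, among them beat-Ia, the receptor of motor axons, beat-IIa and beat-IIb.

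In the optimal set, binding at the dpr genes was upstream, not in them. The 5 summits at dpr14, dpr18, dpr19 and dpr20 all lay in the 1 kb before the gene, and with the body alone counted 0 of 21 dpr genes were bound. These 4 genes are short, from 3.74 to 6.57 kb. At dpr14 (FBgn0029974, X 7903704 to 7908286, minus strand) the summits at 7908813 and 7909019 lay 118 and 88 bp from a start of spidey, a neighbour whose own region holds both. The stronger ranked 1409 in the optimal set and 1387, 1837 and 1325 in replicates 1, 2 and 3, so the replicates placed it alike. Each replicate's strongest peaks had both dpr14 summits, and 5 of its 100 genes of like length had as many.

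At dpr18 (FBgn0030723, X 16063738 to 16070304, plus strand) the summit at 16063030 lay 132 bp from the start of CG12395, and it ranked 7954, 9134 and 4798 in replicates 1, 2 and 3. Only replicate 3 had it among its 6215 strongest peaks. At dpr20 (FBgn0035170, 3L 852720 to 857248, minus strand) the summit at 857870 lay 622 bp upstream of the gene's own start, with no other gene's start nearer, at ranks 4440, 5919 and 2920. At dpr19 (FBgn0032233, 2L 10376168 to 10379905, plus strand) the summit at 10376062 lay 106 bp upstream of the gene's start and also in the region of CG33303, at ranks 5180, 10123 and 2486. This was the only member with an optimal-set summit within 500 bp of an own start (1.85% of members, against 32.1% of genes of like length). Genes were matched on length and not on the number of annotated starts, and most members have only 1. Whether the number of starts plays a part was not tested, and the share over all protein-coding genes is not given here.

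Of the DIP genes only DIP-alpha (FBgn0052791, X 3507245 to 3571649, minus strand, 64.4 kb), a receptor of motor neurons and of neurons of the visual system, had a summit. It lay at 3546160, 25.5 kb into the gene, 15.5 kb before the nearer of its 2 starts and 50 bp from the start of lncRNA:CR34335, and it ranked 4138, 4159 and 4666 in replicates 1, 2 and 3. The replicates thus placed this weak summit within a narrow range. Of its 100 genes of like length 67 had as many summits or more. The strongest peaks of each replicate held the DIP-alpha summit, and no summit in any other DIP gene.

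In the side family, the single summit of side-V (FBgn0085400, 2R 23163012 to 23203973, minus strand, 41.0 kb) lay in an intron at 23189700, 14.3 kb from the start. It ranked 2650 in the optimal set, 2612 in replicate 1 and 2326 in replicate 3, and had no match within 150 bp in replicate 2. The strongest 6215 peaks of replicate 2 placed 1 summit elsewhere in the side-V region. The summit of side itself (FBgn0016061, 3R 27375088 to 27437482, minus strand, 62.4 kb), the muscle cue for motor axons, lay at 27419585 in the intron numbered 1 of its canonical transcript, 17.9 kb from the start. It ranked 4135, 6787 and 4690 in replicates 1, 2 and 3, so that replicate 2 placed it outside its strongest 6215. In both side genes the summit was therefore seen among the strongest peaks of 2 of the 3 replicates.

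**Figure D2:**
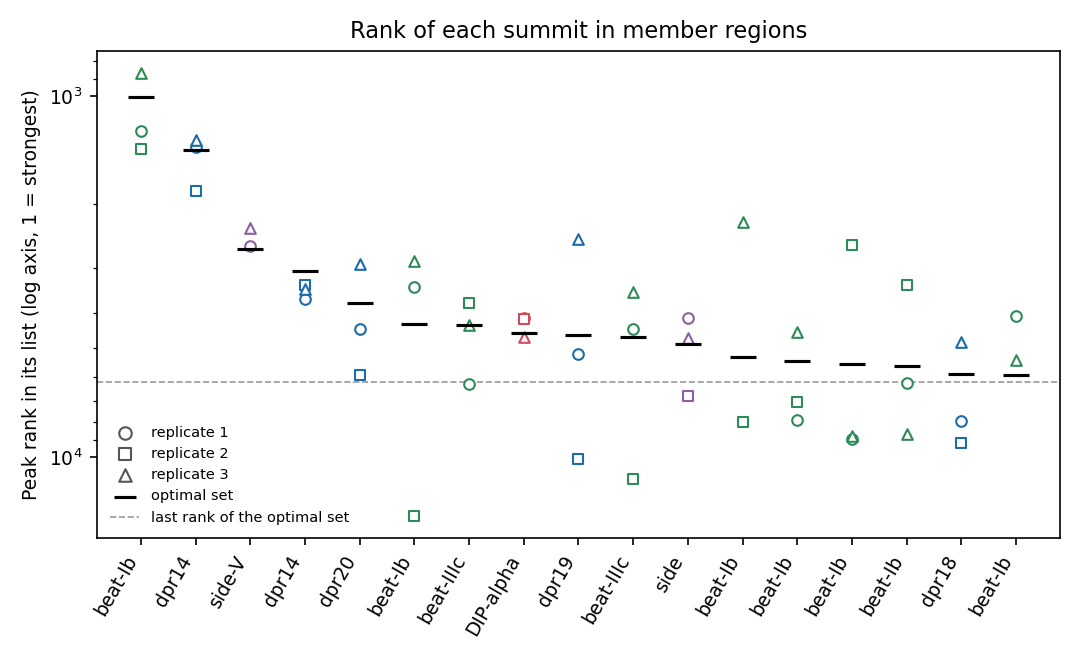
Rank of each of the 17 optimal-set summits in member regions (black dashes), with the rank of the strongest peak within 150 bp in replicates 1, 2 and 3 (circles, squares and triangles, coloured by family: dpr blue, DIP red, beat green, side purple) on a log axis with the strongest at the top. The beat-Ib summit at rank 1007 leads, and many of the weaker summits fall below the dashed line at 6215 in at least 1 replicate.

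Of the 12 genes in the 7 known binding pairs read here, 2 were bound (16.7%), the same share as over all members and near the 17.9% of all protein-coding genes. Of the pairs, dpr6 and dpr10 with DIP-alpha had 0 and 0 summits in the dpr genes and 1 in DIP-alpha, and beat-Ia with side had 0 summits in beat-Ia and 1 in side. For dpr11 with DIP-gamma, the pair of the R7 photoreceptor and its target neurons, for dpr12 with DIP-delta, the pair of the mushroom body, and for beat-IIa and beat-IIb with side-IV, both sides had 0. No pair had a summit of the optimal set in both partners, and with so few bound genes nothing is read from that.

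Length changed the picture. Of the 10 members under 10 kb, 4 were bound (40.0%, exact binomial 95% interval 12.2% to 73.8%), against 24.7% of their own genes of like length, a difference within the counting error. Of the 27 members from 10 to 50 kb, 1 was bound (3.70%, interval 0.0937% to 19.0%), against 55.8%. Of the 17 members of 50 kb or more, 4 were bound (23.5%, interval 6.81% to 49.9%), against 62.4%. The share below that of genes of like length was thus in the members over 10 kb. The short members that were bound are the 4 dpr genes above, whose optimal-set summits lie outside the gene body.

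**Figure D3:**
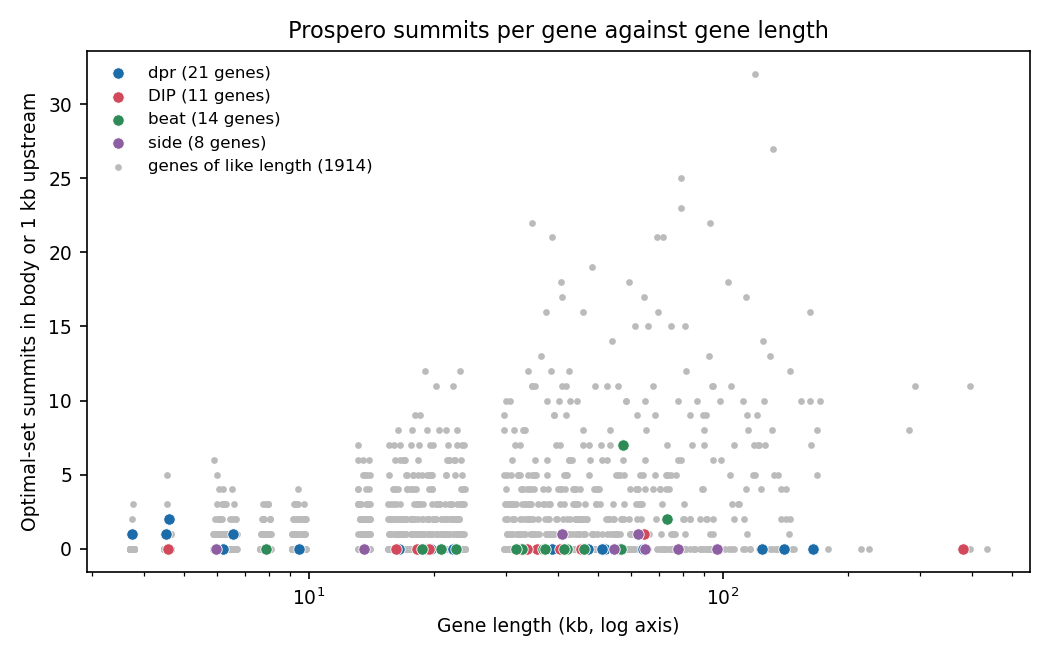
Optimal-set summits in the body or 1 kb upstream of each gene, against gene length in kb on a log axis, for the 54 members (coloured by family) and for the 1914 genes of like length (grey). Above 10 kb most members lie at 0, with beat-Ib at 7 summits the highest, while grey genes of that length often hold several; under 10 kb members averaged 0.5 summits and their genes of like length 0.387.

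Where summits did fall in member regions, they were mostly in introns or at the starts of other genes. Of the 17, 9 were intronic (52.9%, against 65.6% of summits in genes of like length), 7 were at a promoter, meaning within 500 bp of any annotated start (41.2%, against 30%), and 1 was intergenic. Only 1 of the 7 promoter summits was at the member's own start, and 6 were at the start of another gene or RNA gene. The median distance to the nearest own start was 33.6 kb, against 2.79 kb in genes of like length, and 12 (70.6%) lay more than 5 kb away, against 38.7%. The beat-Ib cluster carried much of this: without beat-Ib the median of the other 10 was 7.5 kb, 5 (50%) lay more than 5 kb away, and 5, all at the dpr genes, lay within 1 kb. The distance is to the nearest of a gene's annotated starts, so it also depends on their number, which was not matched. Of the 17 summits 5 (29.4%), those of the dpr genes, lay upstream or in the 5′ 25% of the gene, against 45.8% of the placements in genes of like length. The shares among the 17 summits have wide intervals, 27.8% to 77.0% for introns and 18.4% to 67.1% for promoters.

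**Figure D4:**
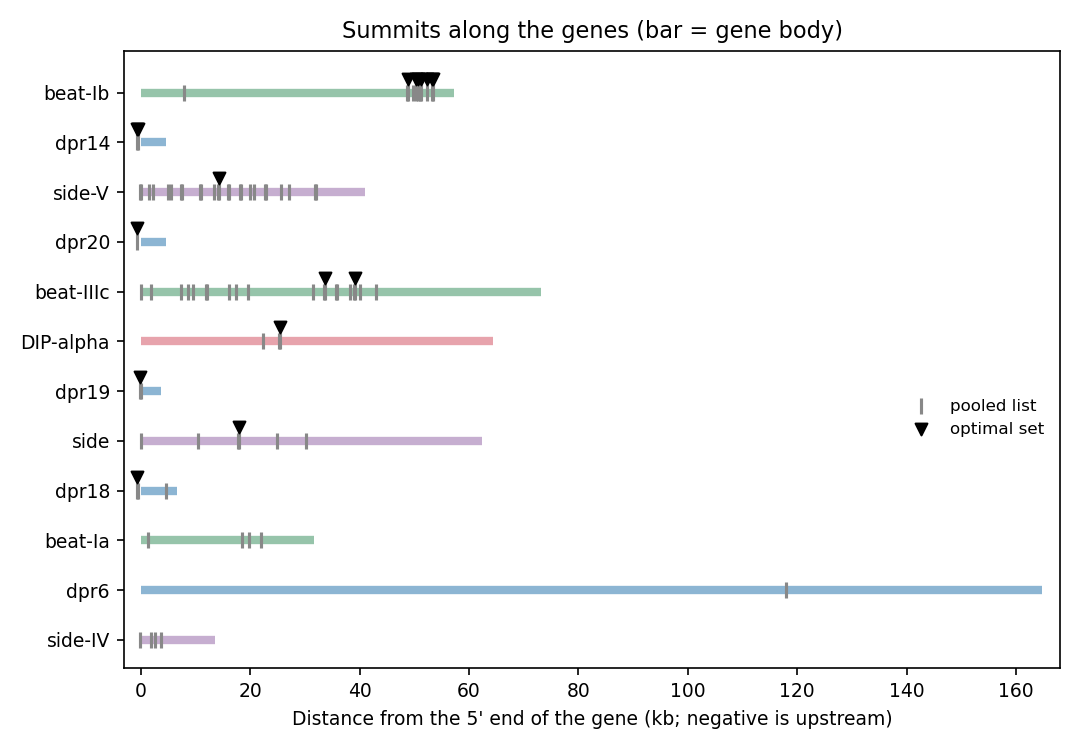
Summits along the 9 bound members and the 3 unbound members with the strongest pooled-list summits (beat-Ia, dpr6, side-IV), as distance in kb from the 5′ end of the gene, with the gene body as a bar, pooled-list summits as grey ticks and optimal-set summits as triangles. The optimal-set summits of beat-Ib stand together 48.8 to 53.4 kb from the 5′ end, and those of the short dpr genes stand upstream. In side-V and beat-IIIc there are many pooled-list summits, of which 1 and 2 are in the optimal set.

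The stretches around the members were poor in summits as well. Member regions held 0.66 optimal-set summits per 100 kb, the 50 kb to either side of them held 2.08, genes of like length held 5.59 and the whole of the 6 arms held 4.64. In the pooled list, called on the reads of the 3 replicates together, the values were 3.81, 9.25, 25.9 and 22.4 per 100 kb. This order was the same in both lists. The member regions, 2.58 Mb in all, include DIP-lambda (379 kb) and dpr21 (124.5 kb) near the base of 2R. The pooled list has no summit there, and these 2 genes were not left out of the densities.

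The pooled list of 30000 peaks, which includes weaker ones, had a summit in 24 of 54 members (44.4%), against 77.5% of genes of like length and 45.9% of all protein-coding genes. The 15 members it added were DIP-beta, DIP-gamma, DIP-epsilon, DIP-eta, DIP-theta, beat-Ia, beat-IIb, beat-IV, beat-VII, dpr6, dpr11, dpr12, side-III, side-IV and side-VIII. The strongest of these summits was in an intron of beat-Ia at 16068364 on 2L, 18.4 kb from the start, at rank 7517 in the pooled list and 7150, 7913 and 8164 in replicates 1, 2 and 3. The beat-Ia ranks were close together in the 3 replicates, just beyond the length of the optimal set. The strongest at dpr6, at 10092526 on 3L, was 180 bp from a start of CG32053 and 118 kb from that of dpr6, at pooled rank 8632 and ranks 7230, 9663 and 10589 in the replicates. At side-IV the summit at 13454297 on 3R, 3.71 kb from the start, had pooled rank 10243 and ranks 17850, 5190 and 21739, which differ widely.

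The pooled list placed a summit within 500 bp of an own start in 7 members, namely DIP-epsilon, DIP-eta, beat-IIIc, dpr19, side, side-IV and side-V (13.0%, against 66.4% of genes of like length). Here too the number of starts per gene was not matched. The remaining 30 members had no pooled summit. Of these, DIP-kappa, beat-IIa, dpr8, dpr10, dpr13, dpr16 and side-VII had a summit in a replicate list only.

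No list held any summit in 23 members (42.6%, against 16.2% of genes of like length and 43.8% of all protein-coding genes). They were dpr1, dpr2, dpr3, dpr4, dpr5, dpr7, dpr9, dpr15, dpr17, dpr21, DIP-delta, DIP-zeta, DIP-iota, DIP-lambda, beat-Ic, beat-IIIa, beat-IIIb, beat-Va, beat-Vb, beat-Vc, beat-VI, side-II and side-VI, from 4.57 to 379 kb long. DIP-lambda, the longest of all members, and dpr21 lie near the base of 2R, where the pooled list has no summit before position 4261623 and 22 protein-coding genes lie before it. Whether reads from that stretch could give peaks was not tested. Without these 2 members 17.3% of 52 were bound, against 51.7% of genes of like length.

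A larger share of a mixed list of other adhesion and cell surface genes had a summit, at a like length. The list includes genes known for other roles, such as Lac and sns below. Its share is therefore not that of axon guidance or synaptic genes alone. Of 60 such genes (Dscam, Toll, teneurin, neurexin, neuroligin, cadherin and receptor phosphatase genes and other immunoglobulin and leucine-rich repeat genes), 33 were bound (55.0%, exact binomial 95% interval 41.6% to 67.9%), against 49.0% of their own genes of like length and 17.9% of all protein-coding genes. The median length of the 60 was 37.2 kb. In the replicates taken alone the share was 57.8% ± 1.92 (SD, n = 3), against 14.8% ± 1.85 for the members above. The list was chosen with earlier results of these data known, and the difference was not tested. It was uneven within its classes. Dscam2, Dscam3, Dscam4, Nlg1, Nlg2, Nlg3, Nlg4 and Nrx-1 held no optimal-set summit, as most members did. Dscam1, CadN, Ten-m and Ten-a held 5, 8, 8 and 11. Its strongest summits were at Lac, the septate junction protein Lachesin (4 summits, best rank 7), at sns, a receptor of myoblast fusion (3 summits, best rank 15), and at ed, the adhesion protein Echinoid (7 summits, best rank 141). None of the 9 bound members came near these ranks, the strongest being 1007 at beat-Ib. Some bound genes of the list did not either, with best ranks of 2691 at Lar, 4175 at Ptp99A and 4396 at Tollo.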

How the data were processed

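The deposited files are peak lists on dm6 in the narrowPeak format. Per the deposited file descriptions, each replicate's list was derived from its alignments and a control, the pooled list from the alignments of the 3 replicates, and the optimal set from the lists by irreproducible discovery rate. No source used here names the aligner, the peak caller or that threshold. Chromatin was sonicated to 200 to 800 bp, per the labels. The deposited signal per peak, on a scale not stated, served only to rank peaks within a list. The deposited −log10 q-value was 4.30 for every optimal-set peak and was not used. Read counts are absent, so depth is unknown. The 4 other lists held 30000 peaks each. How embryos of the biological replicates were collected is not stated.

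Genes came from Ensembl release 115 (BDGP6, the coordinates of dm6) on 2L, 2R, 3L, 3R, 4 and X, and sequence from the RefSeq copy of the assembly. Positions are 1-based. Summits were assigned to gene bodies plus 1 kb upstream, summits of 2 lists were matched within 150 bp, and each member was set beside the 100 non-member genes nearest in region length. All comparisons are descriptions. Python 3.11.15, pandas 2.3.3 and SciPy 1.17.1 were used, and the assignment was tested on simulated data. The members and lists were chosen with earlier results of these data known. Described with values were the 4 members per family with most summits, those with the 10 strongest summits, the partner pairs, the 3 unbound members with the strongest pooled summit and the 3 other cell surface genes with the strongest summit; sequences on 2R were not used. Alternatives were the gene region, the peak list, single replicates, leaving out each replicate, summits in no other gene, and how genes of like length were drawn. Leaving out a replicate kept the optimal-set peaks matched among the strongest peaks of both others, so these sets still rest on the pooled reads. The 3 replicates form a single group, and no paired analysis applies.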

Additional observations from a re-analysis of the deposited data

How the results depend on the processing

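The share of members bound was below that of genes of like length under all 13 other choices of region and peaks. With the gene body only it was 9.26% against 47.6%, within 1 kb of a start 7.41% against 36.6%, for summits of the stronger 50% it was 5.56% against 38.0%, in the pooled list 44.4% against 77.5%, and with summits in no other protein-coding gene 11.1% against 44.9%. The share within 1 kb of a start also depends on how many starts a gene has, which was not matched. In single replicates 1 and 2 the members' share was 14.8% and 13.0%. Genes of like length stood at 57% with 5 kb upstream and at 53.5% in replicate 3, and drawing them in 3 other ways moved them by less than the spread between replicates. Without each replicate in turn the members ranged from 7.41% to 14.8% and genes of like length from 45.7% to 46.2%.

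Counts by family were smaller where they moved, except in the pooled list. The dpr count was 0 with the body only, 1 in the stronger 50%, 2 in replicate 2 alone, 1 with summits in no other gene and 7 in the pooled list, and ranged from 2 to 3 without each replicate. The DIP count was 0 within 1 kb of a start and 0 in the stronger 50%, and 6 in the pooled list. The beat count was 0 within 1 kb of a start, 1 in the stronger 50% and 6 in the pooled list, and ranged from 1 to 2 without each replicate. The side count was 0 within 1 kb of a start, 1 in the stronger 50% and 5 in the pooled list, and ranged from 0 to 2, being 0 without replicate 1 and 0 without replicate 3. Summits in member regions numbered 5 within 1 kb of a start, 4 in the stronger 50%, 11 in replicate 2 alone and 98 in the pooled list, and ranged from 5 to 11 without each replicate. The cause was not tested.

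The other cell surface genes stood at 50% with the body only, 63.3% with 5 kb upstream, 43.3% within 1 kb of a start and also 43.3% in the stronger 50%, 78.3% in the pooled list and 60% in replicate 2. Member summits at promoters made up 52.9% with promoters of 1000 bp, 35.3% with 250 bp, 30.8% with 1 summit per region and 50% in the stronger 50%, and ranged from 45.5% to 60% without each replicate. AAGACG was in 5.88% of member windows reaching 200 bp to either side. Leaving out the 2 members at the base of 2R, or beat-Ib, was added after the data were seen. With 17 summits, shares among them are known only coarsely, and an unbound member means no called peak at an unknown depth.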

Other observations

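Pooled-list summits that did not reach the optimal set were mostly in a pair of member genes. Of 81 such summits in member regions 42 (51.9%) were in side-V and beat-IIIc, which held 24 and 18, and no other member held more than the 5 of side. At side-V all 25 pooled summits spread over 32.2 kb of a gene of 41.0 kb, and the replicate lists held 22, 25 and 25 there in replicates 1, 2 and 3, while only 1 of them reached the optimal set. At beat-IIIc all 20 pooled summits spread over 43.1 kb, with 12, 19 and 18 in the replicate lists and 2 in the optimal set. In side, 6 pooled summits spread over 30.2 kb, with 5, 8 and 7 in the replicate lists. These counts were close between replicates 2 and 3 in each of the 3 genes.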
